A study of Mus musculus with 10 samples.

Results

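The 10 genes described here are nuclear genes whose products copy, transcribe, pack or clear mitochondrial DNA, and all 10 were among the 12381 genes tested of 51717 in all. They were chosen by function, with the values of these same samples known, so their levels and differences are given as a description. RNA was sequenced from GMPs, the granulocyte-macrophage progenitors of the bone marrow, of male mice on the C57Bl6/N background. Both groups came from irradiated CD45.1 hosts that had received mixed bone marrow, and the CD45.2+ donor GMPs were sorted after 2 wk of tamoxifen chow. WT donors carried ROSA26 CreER+/-, and recent KO donors were Mpc2fl/fl; ROSA26 CreER+/-, in which tamoxifen deletes exon 3 of Mpc2 wherever CreER is expressed. Mpc2 encodes a subunit of the carrier that brings pyruvate into mitochondria. Each group had 5 samples, 1 mouse per WT sample and a pool of 2 mice per recent KO sample. Because only the recent KO samples were pools, pooling and genotype cannot be told apart, and p-values measure the spread between these samples.

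Mitochondrial DNA is copied by a dedicated set of proteins that are made from nuclear genes. DNA polymerase gamma pairs a catalytic subunit (Polg) with an accessory subunit (Polg2) and works behind a helicase (Twnk) on strands coated by Ssbp1. Transcription is carried out by Polrmt with Tfam and Tfb2m, and the same Tfam also packs the DNA into nucleoids.

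Samples held 14033776 to 19745405 estimated reads, and the targeted gene, Mpc2, was at 61.0 to 117 CPM (reads per 1000000, with library sizes scaled by TMM) in WT and 17.1 to 43.9 CPM in recent KO, without overlap. All 10 GMP markers were detected. Their summed level was 90093 to 127390 CPM in WT and 53743 to 92039 CPM in recent KO, and none was called. Of the 10, 8 had a negative fold change, and the median log2 fold change was -0.34. With edgeR 6 had an unadjusted p under 0.05, all lower in recent KO. Fcgr3 was the 1 without overlap, at 357 to 456 CPM in WT and 153 to 318 CPM in recent KO. Of the 9 macrophage markers 3 were called, all higher in recent KO (C1qa, C1qb and C1qc), and the summed level went from 17.1 to 32.7 CPM in WT to 36.9 to 64.7 CPM in recent KO. Of the 8 tested, 7 had a positive log2 fold change, among them Vcam1 at 0.18. Adgre1 was negative at -0.39, and neither of these was called. The 9 erythroid markers summed to 13.9 to 49.2 CPM in WT and 28.1 to 215.96 CPM in recent KO. All 8 tested had a positive fold change, with a median log2 fold change of 1.735. With edgeR 5 of them had an unadjusted p under 0.05 and 0 were called. Of the 9 late neutrophil markers 8 had a positive fold change, with a median log2 fold change of 1.03, 5 at an unadjusted p under 0.05 and 0 called by edgeR, and their summed levels overlapped at 199 to 540 CPM in WT and 202 to 945 CPM in recent KO. The part of these shifts in the values below was not tested. Recent KO replicate 2 stood apart, since 41 genes were called with all samples and 91 without it. The 18 proliferation genes summed to 3582 to 3828 CPM in WT and 3717 to 4018 CPM in recent KO, and none was called.

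Polg was the member that differed most, and the log2 fold changes of the other 9 ran from -0.27 to 0.08. Polg (chromosome 7, 79446231 to 79466362, minus strand, GRCm38) was at 16.8, 20.96, 21.1, 21.1 and 16.3 CPM in the 5 WT samples and at 13.7, 11.3, 13.2, 14.2 and 13.6 CPM in the 5 recent KO samples. Every recent KO sample lay below every WT sample. The mean went from 19.3 ± 2.47 CPM (SD, n = 5) to 13.2 ± 1.13 CPM (SD, n = 5), a log2 fold change of -0.54 ± 0.10 (SE) with an edgeR adjusted p of 0.0466. In bulk samples, fewer cells of a type and less RNA per cell cannot be told apart. Among all genes tested, 0.331% passed this threshold in either direction and 0.21% were lower in recent KO. Groups did not overlap in either direction for 2.43% of genes tested, and Polg was the sole member without overlap.

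In the main edgeR fit the call of Polg sat close to the threshold. With DESeq2 its adjusted p was 0.00139, and with edgeR without the low-count filter it was 0.00543. Of 24 alternatives 6 kept the call and 18 did not. The edgeR call held when WT replicate 1, WT replicate 5 or recent KO replicate 2 was left out, with an edgeR adjusted p of 0.0408, 0.036 and 0.0497. Without WT replicate 2, 3 or 4 the adjusted p was 0.119, 0.146 and 0.126, and without recent KO replicate 1, 3, 4 or 5 it was 0.0677, 0.114, 0.0915 and 0.0907. The log2 fold change ran from -0.60 to -0.49 over these 10 fits.

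**Figure D1:**
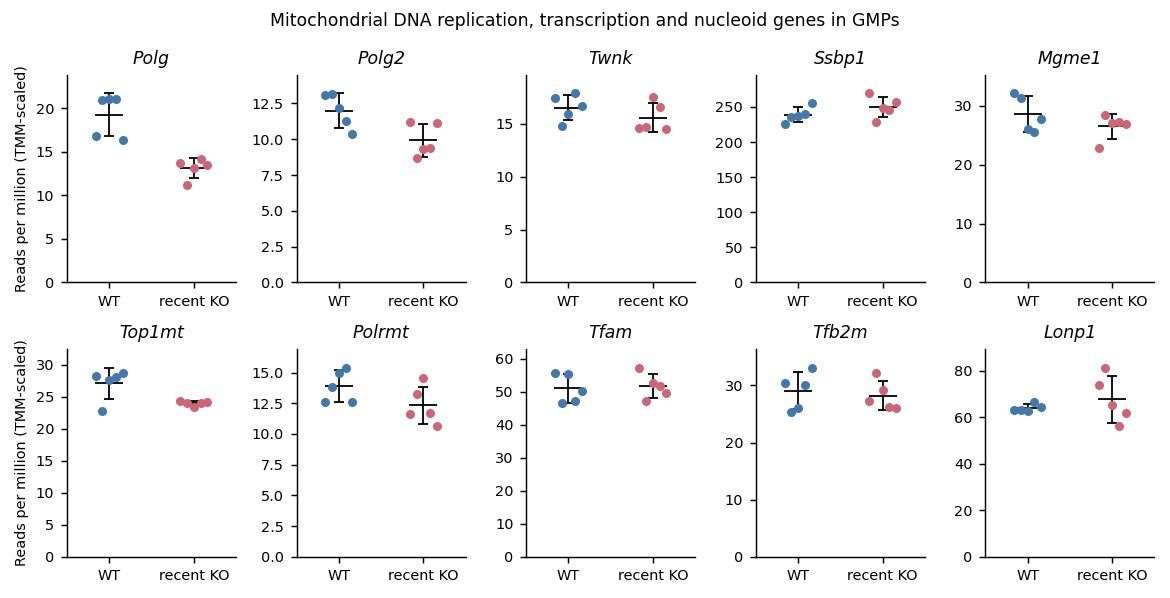
Levels of the 10 nuclear genes of mitochondrial DNA replication, transcription and nucleoids in CPM (y axis, from 0) in 5 WT and 5 recent KO samples. Points are samples, and bars are the mean and SD. Polg is the panel in which all 5 recent KO samples (11.3 to 14.2) lie below all 5 WT samples (16.3 to 21.1).

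Polg2 and Top1mt came next by size, without a call. Polg2, the accessory subunit that holds the polymerase on its template (chromosome 11, 106768253 to 106779537, minus strand), was at 13.1, 13.1, 12.2, 11.3 and 10.4 CPM in WT and 11.2, 8.67, 9.33, 9.38 and 11.1 CPM in recent KO. Its groups overlapped through recent KO replicates 1 and 5, and its log2 fold change was -0.27 ± 0.11 (SE) with an edgeR adjusted p of 0.414. With protein-coding transcripts alone the sign of Polg2 turned (0.0086), so no direction is given for it. Top1mt, the mitochondrial topoisomerase that relieves twist in the circular DNA (chromosome 15, 75657035 to 75678800, minus strand), was at 28.3, 22.8, 27.6, 28.1 and 28.7 CPM in WT and 24.4, 24.0, 23.5, 24.0 and 24.1 CPM in recent KO. WT replicate 2 was the lowest of all 10 samples and the sole reason that the groups overlapped. The log2 fold change of Top1mt was -0.18 ± 0.07 (SE), with an edgeR adjusted p of 0.439.

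The remaining replication factors had smaller fold changes and were not called. Twnk, the helicase that opens the double strand (chromosome 19, 45005663 to 45012762, plus strand), was at 14.8 to 17.9 CPM in WT and 14.5 to 17.5 CPM in recent KO, a log2 fold change of -0.08 ± 0.09 (SE). Mgme1, an exonuclease that trims replication ends (chromosome 2, 144270663 to 144281227, plus strand), was at 25.6 to 32.1 CPM in WT and 22.8 to 28.4 CPM in recent KO, a log2 fold change of -0.11 ± 0.09 (SE). Ssbp1, the protein that coats single strands (chromosome 6, 40471352 to 40484700, plus strand), was at 226 to 255 CPM in WT and 229 to 269 CPM in recent KO, a log2 fold change of 0.07 ± 0.06 (SE). The ranges of all 3 genes overlapped between groups.

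The transcription and nucleoid factors also overlapped between groups. Polrmt, the RNA polymerase that reads mitochondrial DNA and makes replication primers (chromosome 10, 79736123 to 79746581, minus strand), was at 12.6 to 15.4 CPM in WT and 10.7 to 14.5 CPM in recent KO, a log2 fold change of -0.17 ± 0.11 (SE). Tfam, which bends and packs the DNA (chromosome 10, 71225464 to 71238280, minus strand), was at 46.7 to 55.8 CPM in WT and 47.3 to 57.3 CPM in recent KO, a log2 fold change of 0.02 ± 0.08 (SE). Tfb2m, which melts the promoter for the polymerase (chromosome 1, 179528055 to 179546267, minus strand), was at 25.4 to 33.1 CPM in WT and 26.1 to 32.1 CPM in recent KO, a log2 fold change of -0.04 ± 0.09 (SE). The signs of Polrmt, Tfam and Tfb2m flipped under some scalings or transcript choices, so no direction is given for them. Lonp1, the matrix protease that degrades Tfam among other proteins (chromosome 17, 56614297 to 56626887, minus strand), was at 62.6 to 66.5 CPM in WT and 56.2 to 81.2 CPM in recent KO, a log2 fold change of 0.08 ± 0.09 (SE). Its spread was wider in recent KO, where the SD was 14.7% of the mean, than in WT, where it was 2.47%.

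Over the 10 members, 1 was called (Polg, lower), 7 had a negative and 3 a positive fold change, and the median log2 fold change was -0.10, beside -0.00 over all genes tested. Unadjusted p was under 0.05 for 3 members, Polg, Polg2 and Top1mt, beside 10.2% of all genes tested. Per transcript length, Ssbp1 was by far the most abundant member at 243 to 292 TPM in WT. Tfam at 18.6 to 28.4 TPM and Lonp1 at 16.8 to 19.2 TPM followed and overlapped each other. Top1mt, Tfb2m and Mgme1 formed the next overlapping group, with medians of 12.7, 12.2 and 10.4 TPM in WT. Polg2, Twnk, Polg and Polrmt were lowest, with overlapping ranges and medians of 5.34, 5.11, 5.09 and 4.94 TPM in WT. The levels in TPM of Polg were 4.58 to 5.57 in WT and 3.81 to 4.58 in recent KO, so on this per-length scale the groups touched, and limma on log2(TPM + 1) gave a log2 fold change of -0.24 with an adjusted p of 0.408.

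The promoters of these genes share short elements that played no part in choosing them. GABP (also called NRF-2), a factor of the ETS family, and Nrf1 are known activators of nuclear genes for mitochondria. Of the 10 members, 9 had entries in the RefSeq promoter table (GRCm38.p6, 250 bases before to 50 after the start), 10 entries in all because Twnk has 2 starts. The ETS core CCGGAAG, searched on both strands, occurred in 6 of the 10 entries, beside 18.6% of the 11740 promoters of tested genes and 8.86% of all 32851 promoters. The Nrf1 core GCGCATGC occurred in 2 of the 10 entries, beside 5.42% of promoters of tested genes. The E-box CACGTG, which Myc binds, occurred in Lonp1 alone, beside 10.2% of promoters of tested genes. The stretches of 30 bases around an ETS core are shown for Polg and the 5 other members that hold one, 5′ to 3′ on the strand of the gene, with the core in capitals.
Polg (chr7:79466293-79466322): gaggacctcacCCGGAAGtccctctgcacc
Tfam (chr10:71238073-71238102): cctgccgcggaCCGGAAGtccgggcttccc
Ssbp1 (chr6:40471410-40471439): ggctccgtgcgCCGGAAGcgagccgctggc
Polg2 (chr11:106779548-106779577): cgggtgacgctCTTCCGGgggcgtggtcta
Polrmt (chr10:79746606-79746635): ccctaagagcgCTTCCGGcagtcgcagaac
Twnk (chr19:45006481-45006510): ggagagttttgCTTCCGGagtcaccgcgag

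The core of Polg began 38 bases before the RefSeq start, and that of Tfam and of Ssbp1 47 bases before. By the GENCODE positions given above, the stretches of Polg, Tfam and Ssbp1 lie inside the annotated gene. That of Polg lies in exon 1 of its transcript Polg-201. In Polg2, Polrmt and Twnk the core lay on the other strand, beginning 29, 43 and 66 bases before the start, and Twnk held a further one at 110 bases. Both cores of Twnk belong to its inner start, and the entry at its outer start, where the annotated gene begins, held none. The log2 fold changes of these 6 members ran from -0.54 for Polg to 0.07 for Ssbp1. The members with an Nrf1 core were Tfb2m and Polrmt, shown in the same way with that core in capitals. A match is a run of letters and was not tested as a binding site.
Tfb2m (chr1:179546245-179546274): ctaggtcgttcGCATGCGCcattcgtaatg
Polrmt (chr10:79746696-79746725): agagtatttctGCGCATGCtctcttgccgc

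Polg was then read by transcript, as a description. Of its 18 annotated transcripts 6 took most reads, and the other 12 together at most 6.75% in a sample. Polg-201, the protein-coding form with 23 exons, took 16.7% to 34.7% of the Polg reads in WT and 7.22% to 24.4% in recent KO. Transcripts annotated with a retained intron took 39.7% to 67.1% in WT and 36.2% to 68.3% in recent KO, so the shares of this class overlapped. Among the other members the share of retained-intron transcripts was largest in Polrmt, at 1.36% to 15.7% over the 10 samples, and it was at most 1.85% in the rest. Polg2 also had many reads outside protein-coding forms, on transcripts of other classes. Its protein-coding transcript took a median of 43.6% in WT and 47.7% in recent KO, and 30.6% to 65.2% over the samples. Salmon divides reads between overlapping transcripts, and the division was unstable for Polg. Polg-203 and Polg-205, for example, were each listed at 0 in 5 of the 10 samples and took up to 28.0% and 20.5% in others.

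The clearest transcript was Polg-216, a single exon with no splice (79463916 to 79466194), which runs from exon 1 through intron 1 and exon 2 into intron 2. It covers the last 125 bases of exon 1 of Polg-201, all 698 bases of intron 1, exon 2 with the start codon, and the first 688 of 2710 bases of intron 2. Estimated reads from Polg-216 were 50.3, 42.5, 33.0, 50.1 and 34.4 in WT and 14.7, 14.7, 17.1, 15.6 and 23.2 in recent KO. Every recent KO sample was below every WT sample, also after scaling, at 1.96 to 3.89 CPM in WT and 0.834 to 1.20 CPM in recent KO. The mean CPM in recent KO was 0.396 times that in WT, beside 0.684 for the gene as a whole. Polg-201 was at 3.53 to 7.28 CPM in WT and 0.977 to 3.31 CPM in recent KO, again without overlap. Polg-214, the transcript with the most reads, overlapped at 3.85 to 6.57 CPM in WT and 3.52 to 6.67 CPM in recent KO.

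Polg-216 is set apart from the spliced transcripts by the boundaries it reads through. They are shown as 15 bases on either side, 5′ to 3′ on the minus strand of chromosome 7 (GRCm38), with exon bases in capitals and intron bases in lower case.
exon 1 to intron 1 (chr7:79466055-79466084): GCGAAGCGGACCGAGgtttccggcgggctc
intron 1 to exon 2 (chr7:79465357-79465386): gtctgtctcctttagGACTTGTGTGAGGAA
exon 2 to intron 2 (chr7:79464589-79464618): ATCCCCCTCGGCCTGgtaagtcgggggtta

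The lower level of Polg was not held by Polg-216 alone. Of the fall in mean of 6.08 CPM, Polg-201 accounted for 34.8%, Polg-216 for 25.3%, Polg-205 for 23.3%, Polg-203 for 18.2% and Polg-214 for 10.5%. Polg-213 went the other way (-12.0%). All these parts rest on the division of reads. Polg-203 and Polg-205 were each at 0 in 5 samples, and Polg-213 was at 0 in WT replicate 4. Without Polg-216 the rest of the gene was at 14.3 to 19.1 CPM in WT and 10.2 to 13.3 CPM in recent KO, still without overlap. Its log2 fold change was then -0.45, and the edgeR adjusted p was 0.147. With protein-coding transcripts alone the log2 fold change was -0.87 with an adjusted p of 0.32. The transcript length offset, which allows for the shift between long and short transcripts, gave -0.36 with an adjusted p of 0.353.

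**Figure D2:**
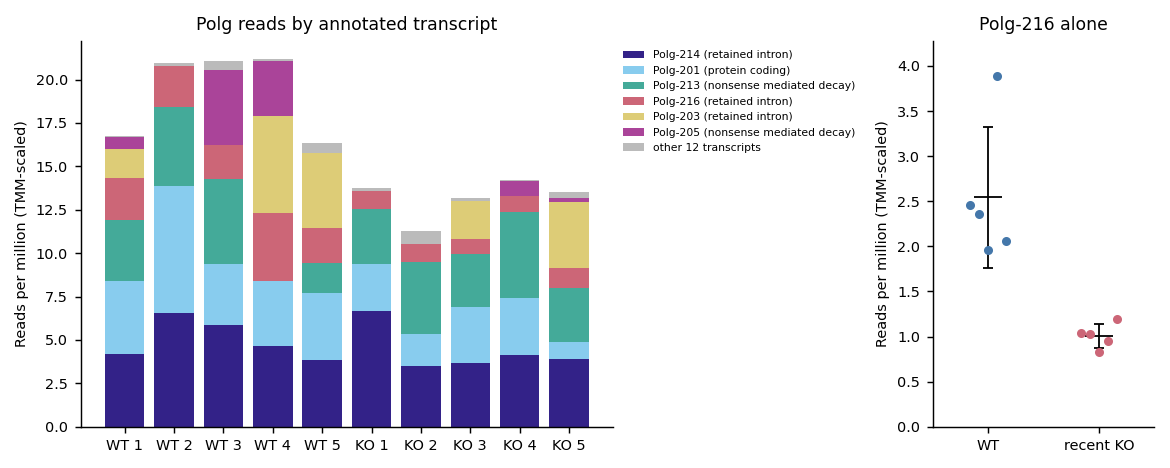
Left, CPM of Polg in each of 5 WT and 5 recent KO (KO) samples, stacked by annotated transcript, and right, the same unit for Polg-216 alone with the mean and SD. The stacks are lower in recent KO, the division among transcripts jumps between samples of a group, and Polg-216 lies at 1.96 to 3.89 in WT and 0.834 to 1.20 in recent KO.

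Exons of 5 members overlap those of a gene on the other strand, and the library kit does not mark strand, so reads of such a pair cannot be told apart where they overlap. For Polg the partner is Fanci, a DNA crosslink repair gene, which shares 921 of 10742 exon bases at the 3′ end of Polg. Fanci was at 6.37 to 8.14 CPM in WT and 5.86 to 8.16 CPM in recent KO, a log2 fold change of -0.07 with an edgeR adjusted p of 0.909. Polg-216, at the other end of the gene, lies outside that overlap. The partners of Polg2, Twnk and Mgme1 were Milr1, Mrpl43 and Snx5, with log2 fold changes of -0.05, -0.07 and 0.08 and none called. Top1mt overlaps Gm15945, which had at most 2 reads in a sample. Near-identical copies of at least 200 bases were found for Ssbp1 (Gm12115, 97.8% identity) and Tfb2m (Gm1818, 99.3%), and they had at most 2 and 0 reads. Part of Tfb2m also matched 1500011B03Rik on the other strand, at 90.6% identity over 223 bases. That gene was at 59.4 to 83.9 CPM in WT and 82.7 to 96.6 CPM in recent KO, with an edgeR adjusted p of 0.187.

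Polg lies on chromosome 7 near 2 genes with far larger fold changes. Here and below, the start of a gene is its lower coordinate, which for Polg on the minus strand is its 3′ end. Hddc3, a nucleotide hydrolase gene whose start lies 897 kb from that of Polg, was at 27.02, 28.7, 25.7, 30.2 and 29.6 CPM in WT and 4.64, 3.99, 5.28, 4.38 and 6.13 CPM in recent KO. Its log2 fold change was -2.52 ± 0.11 (SE) with an edgeR adjusted p of 5.43e-08. Fah, the last enzyme of tyrosine breakdown, lies 5139 kb from Polg and went from 9.34 to 15.7 CPM in WT to 2.15 to 3.94 CPM in recent KO, a log2 fold change of -2.15 ± 0.20 (SE). On the log2 scale both differences were several times that of Polg.

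Of 33 tested genes with a start within 1 Mb of Polg, Polg included, 2 were called, Polg and Hddc3. The window was drawn around Polg because it lay near Hddc3 and Fah, so both calls were known beforehand. These counts are a description and no test against the share over all genes. No further gene was called among the 62 within 5 Mb, and over all genes tested 0.331% were called. The median log2 fold change was -0.07 within 1 Mb and -0.02 within 5 Mb. Within 1 Mb 7 genes had an unadjusted p under 0.05, and all 7 were lower in recent KO. Within 5 Mb 11 of the 62 did, 8 of them lower. Over all genes tested the share was 10.2%, with 663 genes lower and 605 higher. Apart from Polg the 7 genes within 1 Mb were Ngrn, Rccd1, Prc1, Hddc3, Fes and Furin, which lay 815 to 942 kb away. Prc1, a spindle protein gene 848 kb away, was at 65.3 to 78.8 CPM in WT and 51.5 to 63.1 CPM in recent KO, without overlap, and its log2 fold change was -0.24 with an edgeR adjusted p of 0.302. Between Polg and that group no gene was called.

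**Figure D3:**
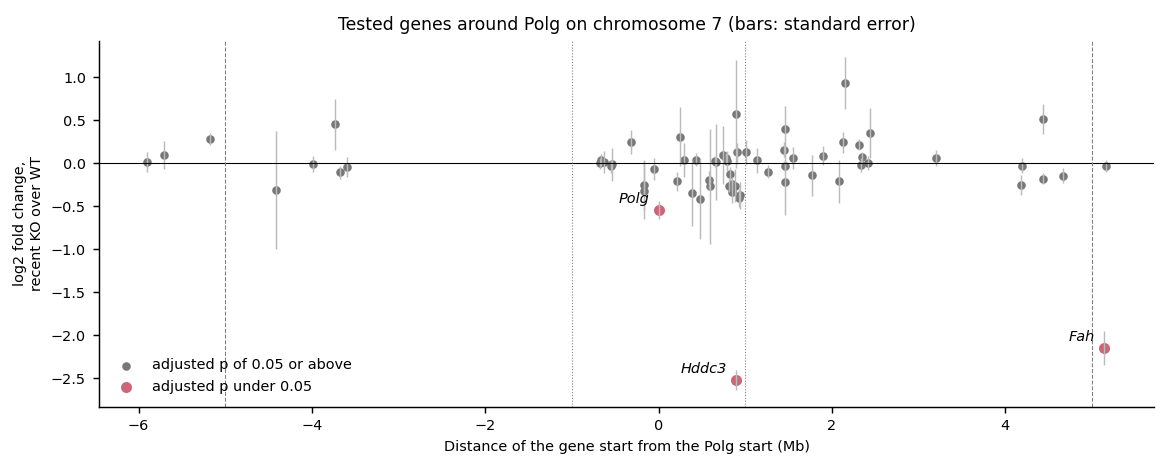
Fold change on the log2 scale, recent KO over WT (y axis, bars are SE) for tested genes by distance from Polg on chromosome 7 (x axis, Mb). The start of each gene is its lower coordinate. Dotted lines mark 1 Mb and dashed lines 5 Mb. Polg, Hddc3 and Fah are the called genes in the window, at -0.54, -2.52 and -2.15, and most others lie near 0.

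The 5 tested genes whose variation within groups was most like that of Polg, by Pearson correlation of group-centred log2 CPM over the 10 samples, were Ppwd1, Gpx1, Gm28048, Setd1b and Cops2. Their r was 0.945, 0.945, 0.942, 0.941 and 0.938, picked as the highest among all genes tested. Spearman rho was 0.83, 0.85, 0.64, 0.88 and 0.81 in the same order. The 10 points share library and depth with Polg, and the values are given as a description. Of these 5 genes none was called, and Gpx1, which encodes a glutathione peroxidase, was the sole gene of the 5 whose groups did not overlap, at 9009 to 11465 CPM in WT and 7470 to 8790 CPM in recent KO. Gm28048 was at 0 in 3 samples.

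A wider set of 75 genes for mitochondrial DNA upkeep and expression gave no call. Ppargc1a, a coactivator of mitochondrial genes, had at most 3 reads in a sample and was not tested, and of the other 74 genes 44 had a positive and 30 a negative fold change. Their median log2 fold change was 0.03, beside -0.00 over all genes tested, and no gene of the 74 was without overlap between groups. With edgeR 0 passed the adjusted threshold and 4 had an unadjusted p under 0.05. DESeq2 and limma also called 0.

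By role, the medians lay close to 0. They were -0.02 for 13 replication and repair genes, 0.05 for 7 transcription genes, 0.04 for 9 nucleoid and proteolysis genes, and 0.04 for 20 genes of RNA processing and turnover. The 14 nucleotide supply genes had a median of -0.06 and the 11 tested nuclear regulators one of 0.09. Of the regulators 10 had a positive fold change.

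The lower genes with the smallest unadjusted p were Mpv17, an inner membrane protein needed to keep mitochondrial DNA, Yme1l1, an inner membrane protease, and Rrm2, a subunit of ribonucleotide reductase. Their log2 fold changes were -0.18 ± 0.07, -0.16 ± 0.08 and -0.14 ± 0.08 (SE). The higher ones were Myc, a growth-related transcription factor, Gabpb1, a subunit of GABP, and Sucla2, a subunit of succinyl-CoA ligase. They had log2 fold changes of 0.20 ± 0.07, 0.21 ± 0.09 and 0.14 ± 0.06 (SE). The edgeR adjusted p of these 6 genes was 0.328 to 0.605, so none passed the threshold. Myc, the one with the smallest p, was at 232 to 277 CPM in WT and 256 to 323 CPM in recent KO.

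**Figure D4:**
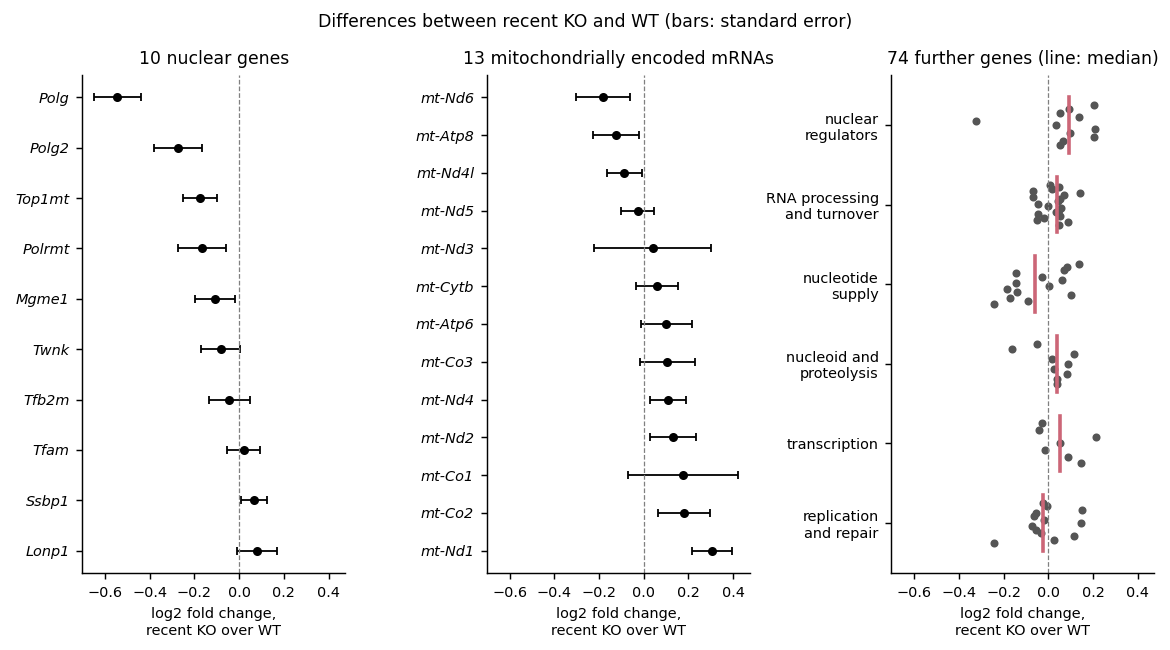
Fold changes on the log2 scale, recent KO over WT (x axis), for the 10 nuclear genes and the 13 mitochondrially encoded mRNAs, each with its SE, and for 74 further genes by role, with the median of each role as a line. Polg at -0.54 and mt-Nd1 at 0.30 lie at the ends, and the medians of the roles lie between -0.06 and 0.09.

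The product of this machinery, RNA from mitochondrial DNA, was measured through its 13 mRNAs, which were not used to choose the members. None was called with edgeR or DESeq2, 9 had a positive fold change, and the median log2 fold change was 0.10. With edgeR 1 had an unadjusted p under 0.05. That gene was mt-Nd1, a core subunit of complex I, at 833, 1002, 1102, 996 and 962 CPM in WT and 1390, 1150, 1277, 1161 and 1064 CPM in recent KO. The groups overlapped slightly, with WT replicate 3 above recent KO replicate 5, and the log2 fold change was 0.30 ± 0.09 (SE) with an edgeR adjusted p of 0.226. It was called with library size alone (0.38, adjusted p = 0.0443) and by limma on log2(TPM + 1) (0.35, adjusted p = 0.0493).

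The other 12 mRNAs ran from -0.18 for mt-Nd6, the one coded on the light strand, to 0.18 for mt-Co2, a core subunit of complex IV. The unstranded reads of mt-Nd6 cannot be told from antisense RNA of the other strand, and mt-Atp8 shares bases with mt-Atp6. The ribosomal RNAs mt-Rnr1 and mt-Rnr2 had log2 fold changes of 0.44 ± 0.24 and 0.17 ± 0.18 (SE), with neither called.

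Together the 13 mRNAs took 1.37%, 1.55%, 1.74%, 1.66% and 1.53% of the reads in WT and 1.90%, 1.60%, 1.96%, 1.82% and 1.71% in recent KO. The ranges overlapped. The mean went from 1.57% ± 0.140 (SD, n = 5) to 1.80% ± 0.144 (SD, n = 5), and an exact two-sided permutation test gave p = 0.0397, where 0.00794 is the smallest p that 5 against 5 allow. By TPM the share was 3.47% in WT and 3.75% in recent KO, with an exact permutation p of 0.0635.

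The higher share depended on what it was measured against. The GMP markers took a smaller part of the reads in recent KO. With these genes left out of the total, the share was 1.75% in WT and 1.95% in recent KO, with an exact permutation p of 0.0794. Against TMM-scaled library sizes it was 1.62% and 1.76%, with an exact permutation p of 0.278.

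**Figure D5:**
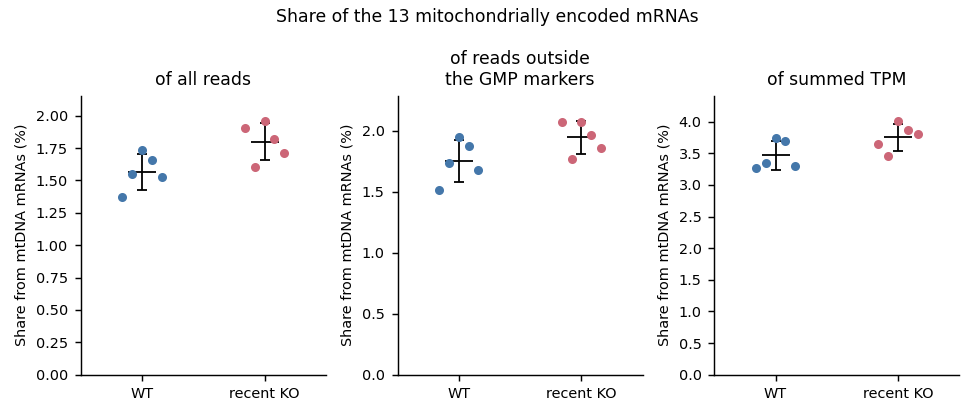
Share of the 13 mitochondrially encoded mRNAs (y axis, percent, from 0) of all reads, of reads outside the 10 GMP markers, and of summed TPM, in 5 WT and 5 recent KO samples, with mean and SD. The recent KO means are higher in each panel (1.80%, 1.95% and 3.75% against 1.57%, 1.75% and 3.47%), and the samples of both groups overlap.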

How the data were processed

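CD45.2+ GMPs of 5 WT and 5 recent KO samples were analysed, grouped by their sample titles. The authors made SMARTseq libraries, sequenced paired ends of 150 bases and quantified transcripts of Gencode M27 with Salmon (1.5.1, per the submitters' processing notes). For each sample the deposited values are estimated counts per transcript, not normalized, TPM, and effective lengths, which were used for the length offset. The authors' own DESeq2 table holds fold changes and p-values and was not used.

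Transcripts were matched to GENCODE M21 (GRCm38) by identifier without version (137161 of 140789, 97.4%), and every position is from M21 or RefSeq on GRCm38. Estimated counts were summed per gene, rounded, filtered with filterByExpr (minimum count 10), scaled by TMM and tested with edgeR 4.0.16 (quasi-likelihood, Benjamini-Hochberg adjustment at 0.05 over 12381 genes, R 4.3.3). SE is the fold change divided by the root of F. Shares were tested by exact permutation with scipy 1.17.1. In a sample 3 reads were worth 0.147 to 0.233 CPM, and no molecular identifiers were used. Each SD is between samples, and each SE comes from the edgeR fit. No pair of replicates agreed within sampling noise (chi-square per gene of at least 6.72), so each sample counted once.

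Members and lists were chosen with earlier results of these data known. Named beyond the members were called genes of the wider list and the mitochondrial mRNAs, the 3 of the wider list with the smallest p in each direction, exon-overlapping genes, Polg neighbours within 1 Mb that were called or did not overlap, with Hddc3 and Fah, the 5 genes most like Polg, and Mpc2. Near copies, mt-Nd1, single mRNAs, Ppargc1a, Polg neighbours with overlap, Fcgr3 and the macrophage markers were named after their values were seen. Prorp was matched through a RefSeq synonym. Alternatives were other normalizations and filters, DESeq2 1.42.0, limma 3.58.1 on TPM (pseudocounts 1 and 0.1, mean TPM of at least 1 or no filter), the replicate number as a block, transcript subsets and leaving out each sample. Polg without Polg-216, retained-intron transcripts left out and 2 other totals for the share were added after seeing the data. The remaining marker lists were B (3 of 7 tested), T and NK (2 of 7), basophil, eosinophil and mast cell (7 of 7) and stem cell genes (5 of 6), with 0 called by edgeR in each and 0, 0, 5 (2 higher, 3 lower) and 2 (both higher) genes at an unadjusted p under 0.05.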

Additional observations from a re-analysis of the deposited data

Results flagged for a closer look

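A single sample stood far from the other 4 of its group in 3 of the 66 groups of 5 samples looked at, and chance gives about 1 in 20 such groups. Mgme1 was at 22.8 CPM in recent KO replicate 1, below 26.9 to 28.4 CPM in the other 4. Top1mt was at 22.8 CPM in WT replicate 2, below 27.6 to 28.7 CPM in the other 4, and without that sample its log2 fold change was -0.23 with an edgeR adjusted p of 0.246. The mitochondrial mRNA mt-Nd5 was at 176 CPM in recent KO replicate 2, below 218 to 229 CPM in the other 4.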

How the results depend on the processing

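Genes called numbered 41, against 206 with no filter on low counts, 156 with DESeq2, 25, 24 and 13 with limma on log2(TPM + 1), log2(TPM + 0.1) and log2(TPM + 1) without a filter, 19 with protein-coding transcripts only, and 25 to 91 when 1 sample was left out, 91 without recent KO replicate 2. Polg kept its direction in all 24 alternatives. It kept its call in 6, namely DESeq2 (-0.54, adjusted p = 0.00139), no filter on low counts (-0.54, 0.00543), RLE normalization (-0.54, 0.0461) and 3 fits without 1 sample. It was not called, leaving 0 members called, with upper quartile (-0.53, adjusted p = 0.0625), library size alone (-0.47, 0.0709), a mean count of at least 50 (-0.54, 0.0506), the length offset (-0.36), limma (-0.24, -0.29 and, without a filter, -0.24), protein-coding transcripts only (-0.87), retained-intron transcripts left out (-0.52, 0.472) and Polg without Polg-216 (-0.45). Leaving out 1 sample gave 0 to 1 members called and -0.60 to -0.49 for Polg. With the replicate block 20 genes and 0 members were called, and Polg was at -0.54 (adjusted p = 0.179). The numbers did not pair the samples, with correlations of same-numbered samples of -0.18 to 0.06 and no WT sample most like its own number. The wider list had 0 calls in all alternatives, and the mitochondrial mRNAs 1 (mt-Nd1) with library size alone and with limma at a mean TPM of at least 1 under both pseudocounts, and 0 otherwise. The share of mitochondrial mRNAs differed by 0.231 percentage points, and by 0.289 by TPM, 0.195 without the GMP markers and 0.141 against TMM-scaled libraries, none of which passed the threshold. Without 1 sample it was 0.181 to 0.280, with an exact permutation p of 0.0317 to 0.0794, under 0.05 in 4 of 10. Signs turned for Polg2 with protein-coding transcripts only (0.0086), Polrmt with limma (0.026, 0.029 and, without a filter, 0.026), Tfam with protein-coding transcripts only (-0.036) and Tfb2m with library size alone (0.023) and limma (0.00073, 0.00077 and, without a filter, 0.00073). With 1 sample left out, Tfam ran from -0.020 to 0.054 and Tfb2m from -0.095 to 0.0076. For the length offset, DESeq2's own count and the transcript subsets the cause was not tested. Members with few reads, such as Polg2 at 124 to 267 reads a sample, are the least precise.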
